A study of Mus musculus with 12 samples.

Results

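The genes described here are 38 interferon-stimulated genes, chosen by name from the known transcriptional program of the interferons, and all 38 were found among the 23238 gene symbols counted in each library. They were measured in cells sorted from mouse lungs as CD74- and EpCAM-positive. The sort was meant to obtain alveolar type II (ATII) cells, the surfactant-producing epithelial cells of the alveolus. RNA from each of 12 mice gave 1 library, read from the 3′ end of polyadenylated transcripts, and the question was how bleomycin (BLM), a DNA-breaking drug that injures the lung, and deletion of the acetyltransferase p300 change the transcripts of these cells. Each of 4 groups held 3 mice. Con mice received PBS and BLM mice received 4 mg/kg BLM into the trachea. KO and KOBLM mice received the same PBS and BLM, respectively, after deletion of p300. The deletion used the inducible Spc-CreERT2 driver, which is active in ATII cells, on a floxed exon 9, and was induced with tamoxifen. The study's methods give 10 mg/kg tamoxifen at 8 weeks of age, before the PBS or BLM, and name no exception. A caption on its isolated ATII cells instead names vehicle or tamoxifen. Whether the Con and BLM mice received tamoxifen thus cannot be told here, and the drug may differ along with the genotype. The Con mice are named WT in the sample titles, C57BL/6 in the study's methods and Spc-p300 f/f in the study's results, so whether the controls carried the floxed alleles and the driver cannot be told here. No label says whether any of the mice shared a litter or a day of sorting.

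Interferons are secreted when cells sense viral or misplaced nucleic acid. Type I and type III interferons signal through JAK1 and TYK2 to a complex that holds STAT2 and IRF9 and binds the interferon-stimulated response element (ISRE), and interferon gamma signals through JAK1 and JAK2 to the gamma-activated site (GAS). The genes they switch on sense nucleic acid, block viral entry, translation or budding, and attack the membranes around intracellular pathogens. In the lung epithelium and in alveolar macrophages this program is a first line of defence against respiratory viruses.

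Both elements were looked for in the promoter windows of the RefSeq annotation (GRCm38.p6), from 250 bases before to 50 bases after each transcript start, where 30 of the 38 genes had a window. Dhx58, Iigp1, Mx1, Oas2, Parp14, Parp9, Rtp4 and Zbp1 had none. The ISRE core was taken as GAAANNGAAA and the GAS core as TTCNNNGAA, where N is any base, on either strand and with overlaps allowed, so that an ISRE on the opposite strand reads TTTCNNTTTC. The ISRE core was present in 19 of the 30 genes (63.3%) and in 3.99% of the 27025 genes with a window. The GAS core was present in 10 (33.3%) and in 9.55% of all genes, and a single window held both in 7 (23.3%) and in 0.54% of all genes. Cmpk2, Herc6, Ifi44, Irf7, Irf9, Oasl1, Oasl2 and Xaf1 had neither in this window. A match describes the letters only. The stretches of 6 genes are printed on the strand of the gene with the cores in capitals, because they show the forms that occurred: ISRE cores alone, a GAS core alone, and both together, in Oas1a as an example of the OAS genes and in Ifitm3, Gbp5 and Gbp7 for their level or their difference between groups. Isg15 (chr4:156200865-156200906, minus strand) held a run of overlapping ISRE cores, and Irf1 (chr11:53769914-53769942, plus strand) a single GAS core. Oas1a (chr5:120907526-120907633, minus strand), Gbp7 (chr3:142530220-142530302, plus strand) and Gbp5 (chr3:142496684-142496900, plus strand) held both kinds upstream of the start. The 27 bases of Ifitm3 (chr7:141010716-141010742, minus strand) lie from base 3 to base 29 of the transcript and consist of 2 ISRE cores and a GAS core that overlaps the second of them.
Isg15: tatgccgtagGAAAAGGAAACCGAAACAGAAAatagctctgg
Irf1: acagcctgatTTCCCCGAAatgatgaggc
Oas1a: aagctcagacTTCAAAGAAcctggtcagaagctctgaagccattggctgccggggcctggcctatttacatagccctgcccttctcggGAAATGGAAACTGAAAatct
Gbp7: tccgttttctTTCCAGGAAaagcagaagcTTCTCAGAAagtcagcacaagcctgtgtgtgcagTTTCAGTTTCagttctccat
Gbp5: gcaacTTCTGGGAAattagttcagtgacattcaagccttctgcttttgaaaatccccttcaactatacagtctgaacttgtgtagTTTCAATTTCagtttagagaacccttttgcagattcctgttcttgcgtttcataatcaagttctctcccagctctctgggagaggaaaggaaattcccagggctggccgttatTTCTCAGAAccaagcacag
Ifitm3: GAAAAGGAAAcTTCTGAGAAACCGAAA

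**Figure D1:**
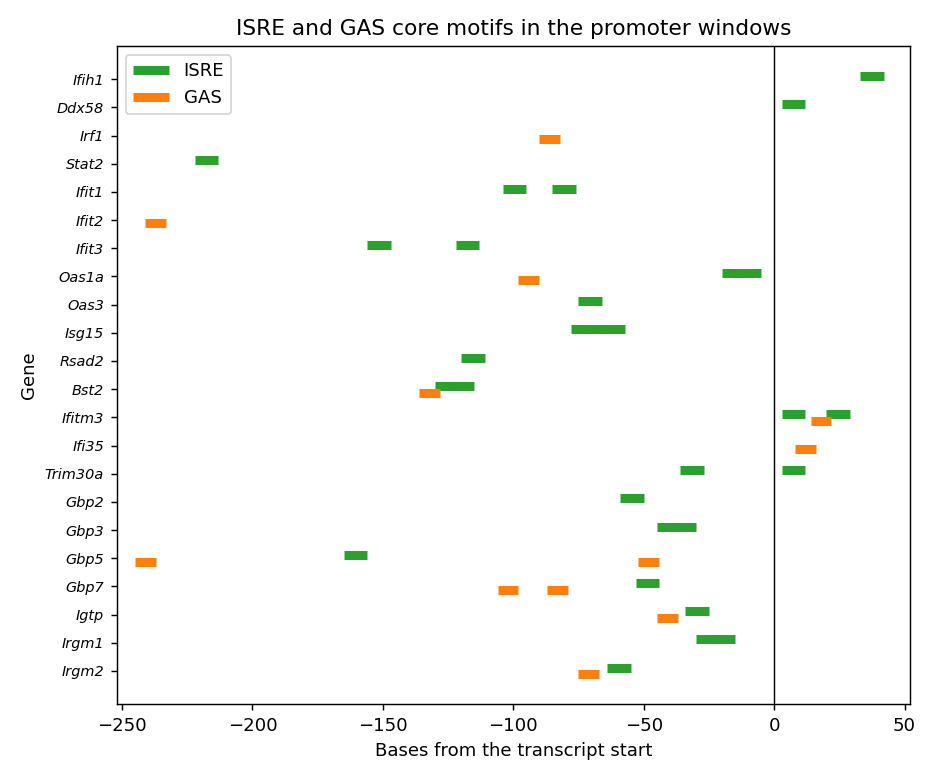
Positions of the ISRE core (green) and the GAS core (orange) in the promoter windows of the 22 genes that held at least 1 of them. The horizontal axis gives the distance in bases from the transcript start (vertical line). Ifitm3 held its cores within the first 29 bases of the transcript, whereas Gbp5 and Gbp7 held theirs upstream of the start.

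The genes lie on 14 chromosomes (GENCODE M21, GRCm38), and 20 of the 38 lie in 8 runs of neighbours with gaps of at most 500000 bp. The run with the most members, 4, is Gbp5, Gbp7, Gbp3 and Gbp2 (chr3:142493978-142638008). Ifitm3 and Irf7 share a stretch of chromosome 7 (chr7:141009586-141266481), and Rsad2 and Cmpk2 stand head to head (chr12:26442746-26479837). Igtp and Irgm2 overlap (chr11:58199556-58222782), and the Ifit, Oas, Gbp and Irgm genes have close copies, so reads at these genes could have been split or credited to a neighbour.

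The libraries held between 7005005 and 11153154 counts, and levels are given as counts per 1000000 counts of the library (CPM). A floor of 3 counts, which covers counting error only, equals 0.269 to 0.428 CPM. The library of the mouse labelled BLM 3 stood apart, with a count on 6847 genes against 8790 to 13838 in the others. Its 10 pluripotency markers summed to 2478 CPM, against 172 to 648 CPM elsewhere, and its 17 macrophage markers to 1045 CPM, against 8219 to 39973 CPM elsewhere. Outside BLM 3 the pluripotency sum rested mostly on Klf2, at 170 to 644 CPM. Dppa5a was at 722 CPM in BLM 3 and at most 0.714 CPM elsewhere, and Tet1 at 511 CPM and at most 5.67 CPM. Zfp42 and Esrrb were at 0 in every library. KO 3 and KOBLM 2 also had fewer than 10000 genes. Among the ATII markers, Sftpc, the gene of surfactant protein C, ranged from 5 counts in KOBLM 3 to 5720 counts in Con 2, and Sftpd, Abca3 and Lamp3 were at 0 in BLM 3 and KOBLM 2. Chil3, an alveolar macrophage gene, had between 4343 and 330149 counts. The macrophage markers summed to more than the 12 ATII markers, 1450 to 4722 CPM, in every library but BLM 3. Chil3 lay above Sftpc in every library, BLM 3 included. The sorted cells therefore held much macrophage RNA, and the levels given here are those of the sorted RNA as a whole. The ATII sum itself rested in large part on Lyz2 and Cd74, which macrophages also express. In KOBLM 3 Lyz2 was at 3314 CPM and Cd74 at 617 CPM, whereas Sftpb, Lamp3 and Slc34a2 were at 0. Sftpc and Sftpa1 fell in BLM against Con, as 2 of the 12 ATII markers. Of the 17 macrophage markers, C1qa, C1qb, C1qc and Msr1 rose and Ear2, Itgax and Mrc1 fell in BLM against Con, and C1qa and Msr1 rose in KO against Con. In such bulk RNA, fewer cells of a type and less RNA per cell cannot be told apart. The T and NK cell markers summed to at most 103 CPM, the B cell markers to at most 61.0 CPM, the endothelial markers to 44.2 to 1509.6 CPM and the plasmacytoid dendritic cell markers, which include Bst2 of the 38 genes, to 42.8 to 588 CPM. This last sum rested mostly on Tcf4 and Bst2, whereas Siglech was at most 23.9 CPM and Klk1 at most 1.74 CPM in any library. Siglech rose in BLM against Con and in KOBLM against KO. Of the T and NK cell markers, Cd8a and Gzma fell in BLM against Con and rose in KOBLM against BLM. Cd3g rose in KOBLM against KO. Of the B cell markers, Cd79a and Ms4a1 fell in BLM against Con. The part of these cells in the results was not tested. Ep300, which encodes p300, was counted 1056, 1341 and 541 times in the Con libraries and 1434, 1118 and 1113 times in the KO libraries. In the BLM libraries it was counted 832, 686 and 475 times and in the KOBLM libraries 1266, 563 and 866 times. As a group, the libraries labelled KO or KOBLM were not lower. The deleted exon lies far from the 3′ end that this kit reads, and the RNA was not of ATII cells alone, so these counts do not check the deletion. Why Ep300 was not lower was not tested. The study reports its own checks of the deletion, by qRT-PCR in isolated ATII cells and by staining of p300 with cell markers in the lung. In the counts used here, every direction for KO and KOBLM rests on the labels.

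Ifitm3, which encodes a membrane protein that blocks the entry of viruses, had a mean of 253 CPM over the 12 libraries. Irf1, a transcription factor induced by interferon gamma, had 205 CPM. The order of these genes differed between groups, since the mean of Irf1 was 156 CPM in Con, 231 CPM in BLM, 150.2 CPM in KO and 280.4 CPM in KOBLM, against 151, 522, 90.1 and 248 CPM for Ifitm3, and each was the highest of the 38 genes in 5 libraries. They were followed by Trim30a, a ubiquitin ligase family gene, with 85.0 CPM and Gbp7, a guanylate-binding protein gene, with 73.2 CPM. Ifi44 was the lowest at 1.63 CPM. Since the kit reads 1 end of each transcript, these values do not grow with transcript length. A count was present in every library for 9 of the genes, and 10 genes were at 0 in 4 or more libraries. All 38 passed the filter on low counts, as part of 13054 genes tested.

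The number of the genes above 3 counts was 29.3 ± 3.21 in Con, 26.7 ± 15.5 in BLM, 31.7 ± 5.51 in KO and 32.0 ± 9.54 in KOBLM (mean ± SD, n = 3 each), so the groups overlapped. BLM 1 and KOBLM 1 had all 38 above 3 counts, KO 2 and KOBLM 3 had 37, and BLM 3 had 9. The 9 genes above 3 counts in BLM 3 were Ifitm3, Irf1, Irf9, Parp9, Bst2, Xaf1, Oasl2, Isg15 and Gbp7. Con libraries had 27, 33 and 28 and KOBLM 2 had 21. The libraries in which the fewest genes had a count, BLM 3, KO 3 and KOBLM 2, were also those with the fewest of the 38. The part of this breadth in the results was not tested beyond leaving those libraries out.

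**Figure D2:**
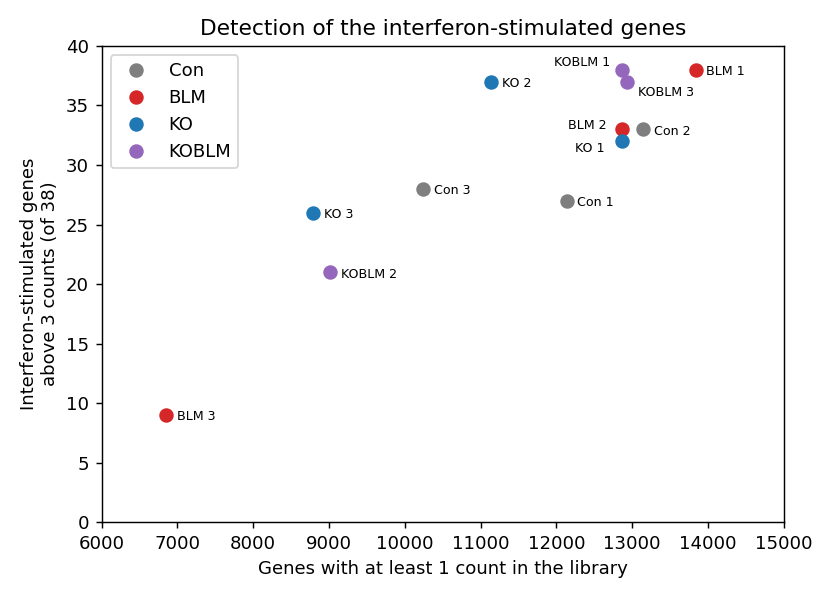
Number of the 38 interferon-stimulated genes above 3 counts (vertical axis) against how many genes of all kinds had a count (horizontal axis), 1 point per library and 1 colour per group. BLM 3 lies at 9 of 38 and 6847 genes, and BLM 1 at 38 of 38 and 13838 genes.

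The level of single genes peaked in different mice. KO 3 held the highest CPM of 10 of the 38 genes, among them all of the immunity-related GTPases (Igtp, Irgm1, Irgm2 and Iigp1), which act on the vacuoles of intracellular pathogens, together with Gbp2, Gbp7 and Trim30a. The 4 immunity-related GTPases summed to 199.9 CPM in KO 3. Their sum was 0.0897 CPM in BLM 3 and at most 113 CPM elsewhere. KO 3 also had the highest sum of macrophage markers, 39973 CPM, and the part of these markers in the result was not tested. KOBLM 1 held the highest CPM of 9 genes, among them Irf1, Isg15, Rsad2, Oas1a, Oas2 and Gbp5, and BLM 1 that of 5, among them Mx1 and Stat2. BLM 3, in which 27 of the 38 genes were at 0, held the highest CPM of Ifitm3, Irf9, Parp9 and Xaf1.

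**Figure D3:**
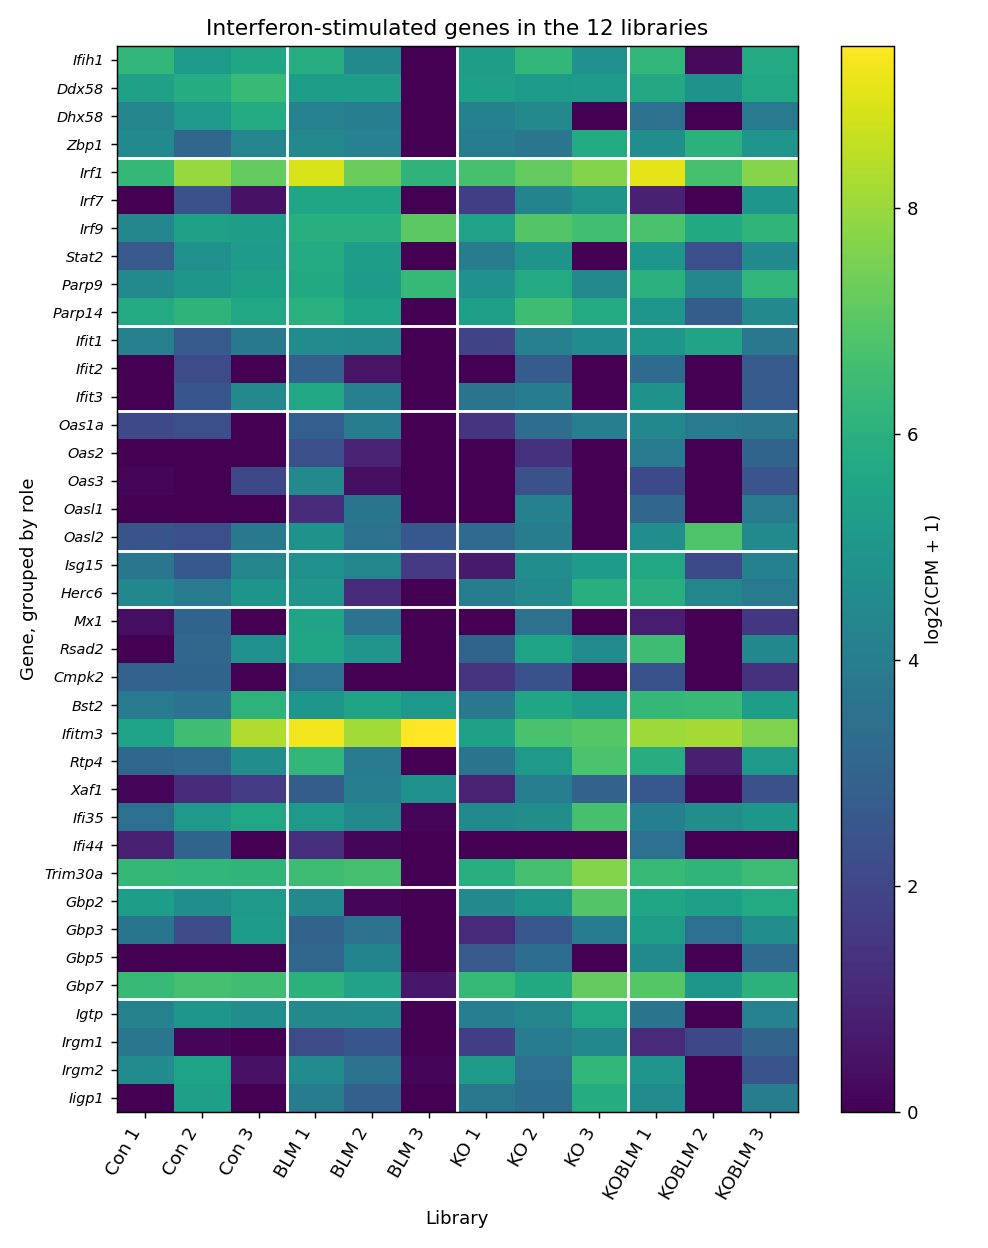
Level of the 38 genes (rows, grouped by role) in the 12 libraries (columns, grouped by condition) as log2(CPM + 1), from dark (0) to bright. Ifitm3 and Irf1 are bright in most libraries, and the column of BLM 3 is dark for the 27 genes at 0.

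The first question was how BLM changed the genes. Ifitm3 rose after BLM in the mice labelled p300-intact and in those labelled p300-deleted. It measured 44.0, 92.8 and 316 CPM in Con and 597, 276 and 694 CPM in BLM. Con 3, the highest control, lay above BLM 2, so the groups overlapped. The means were 151 ± 145 CPM and 522 ± 218 CPM (SD, n = 3 each), a 3.46-fold difference. The log2 fold change was 1.78 with a standard error of 0.68 and an unadjusted p of 0.0199 (edgeR quasi-likelihood test, adjusted p = 0.995 by Benjamini-Hochberg over all genes tested). The two-sided exact permutation p was 0.2, where 3 mice against 3 cannot give less than 0.1. Without Con 1, Con 2 or BLM 1 in turn the call was lost at log2 fold changes of 1.34, 1.54 and 1.59, and without BLM 3 it was kept at 1.67.

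In the mice labelled p300-deleted, Ifitm3 measured 41.5, 105 and 123 CPM in KO and 264, 284 and 195 CPM in KOBLM. Every KOBLM library was above every KO library. The means were 90.1 ± 43.1 CPM and 248 ± 46.6 CPM (SD, n = 3 each), a 2.75-fold difference, with a log2 fold change of 1.45, a standard error of 0.67 and an unadjusted p of 0.0481 (edgeR, adjusted p = 1). The two-sided exact permutation p was 0.1, the smallest possible. The call was lost when any of these 6 libraries was left out, at log2 fold changes of 1.11 to 1.70. Over both genotypes together, the log2 fold change of Ifitm3 was 1.61 with a standard error of 0.48 and an unadjusted p of 0.00435 (edgeR, adjusted p = 1.0), and it kept its direction and its call in 19 of 20 alternatives, all but the adjusted threshold. A two-sided exact permutation within each genotype, chosen after the values were seen, gave p = 0.01. The neutrophil markers summed to 104 to 3696 CPM in Con, 140 to 5696 CPM in BLM, 326 to 791 CPM in KO and 1265 to 2121 CPM in KOBLM. The part of these cells, and of the macrophage markers that moved in BLM against Con, in the level of Ifitm3 was not tested.

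**Figure D4:**
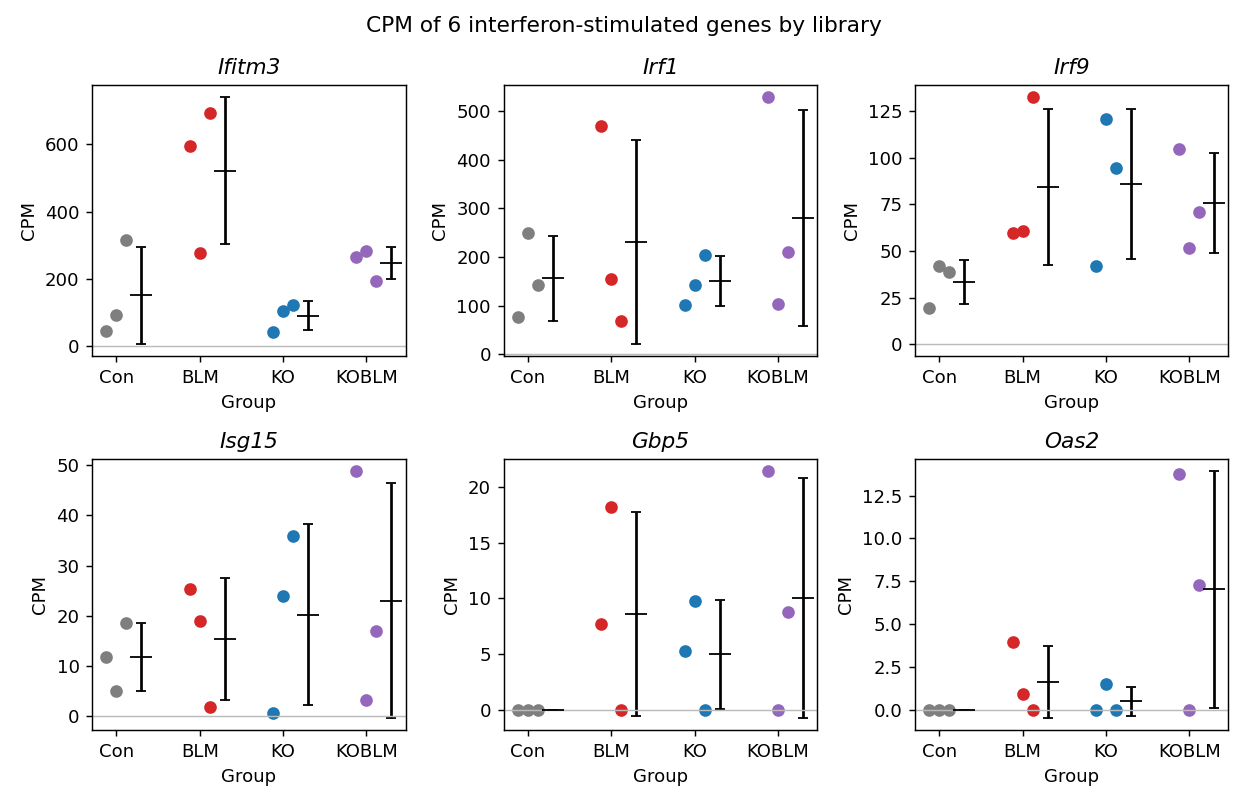
CPM of Ifitm3, Irf1, Irf9, Isg15, Gbp5 and Oas2 in each library (points) by group, with the mean and SD of the 3 libraries (black). Ifitm3 lies between 195 and 694 CPM in the BLM and KOBLM libraries and between 41.5 and 316 CPM in Con and KO. Gbp5 and Oas2 are at 0 in every Con library.

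Gbp5, a guanylate-binding protein that promotes inflammasome assembly, had 0 counts in every Con library and 54, 138 and 0 counts in BLM. It had 52, 71 and 0 counts in KO and 160, 0 and 79 in KOBLM. The libraries at 0 outside Con were BLM 3, KO 3 and KOBLM 2, the same 3 that had fewer than 10000 genes. Against the floor of 3 counts in each Con library, the mean CPM was at least 25.8-fold higher in BLM and at least 14.95-fold higher in KO. The unadjusted p was 0.0338 for BLM and 0.0411 for KO against Con (edgeR, adjusted p = 0.995 and 1), and the two-sided exact permutation p was 0.4 for both. The part of the C1q genes and Msr1, which rose in one or both of these comparisons, was not tested. Leaving out any Con library ended both calls, as did leaving out BLM 2 for BLM and KO 1 or KO 2 for KO. Oas2, a 2′-5′-oligoadenylate synthetase that activates RNase L, was also at 0 in BLM 3, KO 3 and KOBLM 2, with 0 in every Con library, 28, 7 and 0 in BLM, 0, 11 and 0 in KO and 103, 0 and 66 in KOBLM. Its unadjusted p averaged over the genotypes was 0.0499 (edgeR, adjusted p = 1.0), and the call was lost in 14 of 20 alternatives.

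Of the 38 genes, 2 (Ifitm3 and Gbp5) rose in BLM against Con, where a call needed more than a 1.5-fold difference with an unadjusted p below 0.05, and 2.19% of all genes tested rose, and 0 fell, where 2.08% of all genes fell. In KOBLM against KO, 1 (Ifitm3) rose against 1.16% of all genes, and 0 fell against 0.529%. Averaged over the genotypes, BLM raised 3 (Ifitm3, Gbp5 and Oas2) against 2.72% of all genes, and lowered 0 against 1.75%. With edgeR the adjusted p was at or above 0.05 for every one of the 13054 genes in each comparison. The unadjusted p was under 0.05 for 2 of the 38 genes in BLM against Con, 1 in KOBLM against KO and 3 averaged over the genotypes. With DESeq2, 6, 0 and 3 of the 38 rose at the same unadjusted threshold, against 3.9%, 2.24% and 3.75% of all genes. Oasl1 had 0 counts in every Con library, 9, 90 and 0 in BLM and 0, 121 and 0 in KO. DESeq2 fitted log2 fold changes of 22.38 and 22.93 against this group at 0, which are no bound, with adjusted p of 1.71e-06 in BLM and 6.64e-07 in KO against Con, 0.00516 for the interaction, 0.00389 for BLM averaged over genotypes and 0.00177 for deletion averaged over treatments. The unadjusted p of Oasl1 with edgeR was 0.0648 in BLM and 0.0580 in KO against Con (adjusted p = 0.995 and 1). Without BLM 3, KO 3 and KOBLM 2, an alternative chosen after the data were seen, 5 genes rose in BLM against Con (Gbp5, Ifitm3, Irf7, Oas2 and Oasl1), where 5.28% of all genes rose. In KOBLM against KO, Gbp3 and Irf1 rose, where 1.88% of all genes rose, Parp14 fell, where 0.913% fell, and Ifitm3 lost its call.

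The median log2 fold change of the 38 genes was 0.51 in BLM against Con, and that of all genes tested was -0.08. With the 3 genes at 0 throughout Con placed at their bounds it was again 0.51. It was 0.21 against 0.08 in KOBLM against KO. The median log2 CPM of the 38 genes minus that of all genes ran from -1.36 to 0.14 over the Con libraries, was 0.30 in BLM 1 and -0.21 in BLM 2, and ran from -0.66 to 0.68 in KO and from -1.92 to 0.45 in KOBLM, so the groups overlapped. In BLM 3 both medians lay at the lowest value the log scale allows, so its difference carries no information. In BLM against Con 21 of the 38 lay above the median of all genes, and in KOBLM against KO 20 did.

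**Figure D5:**
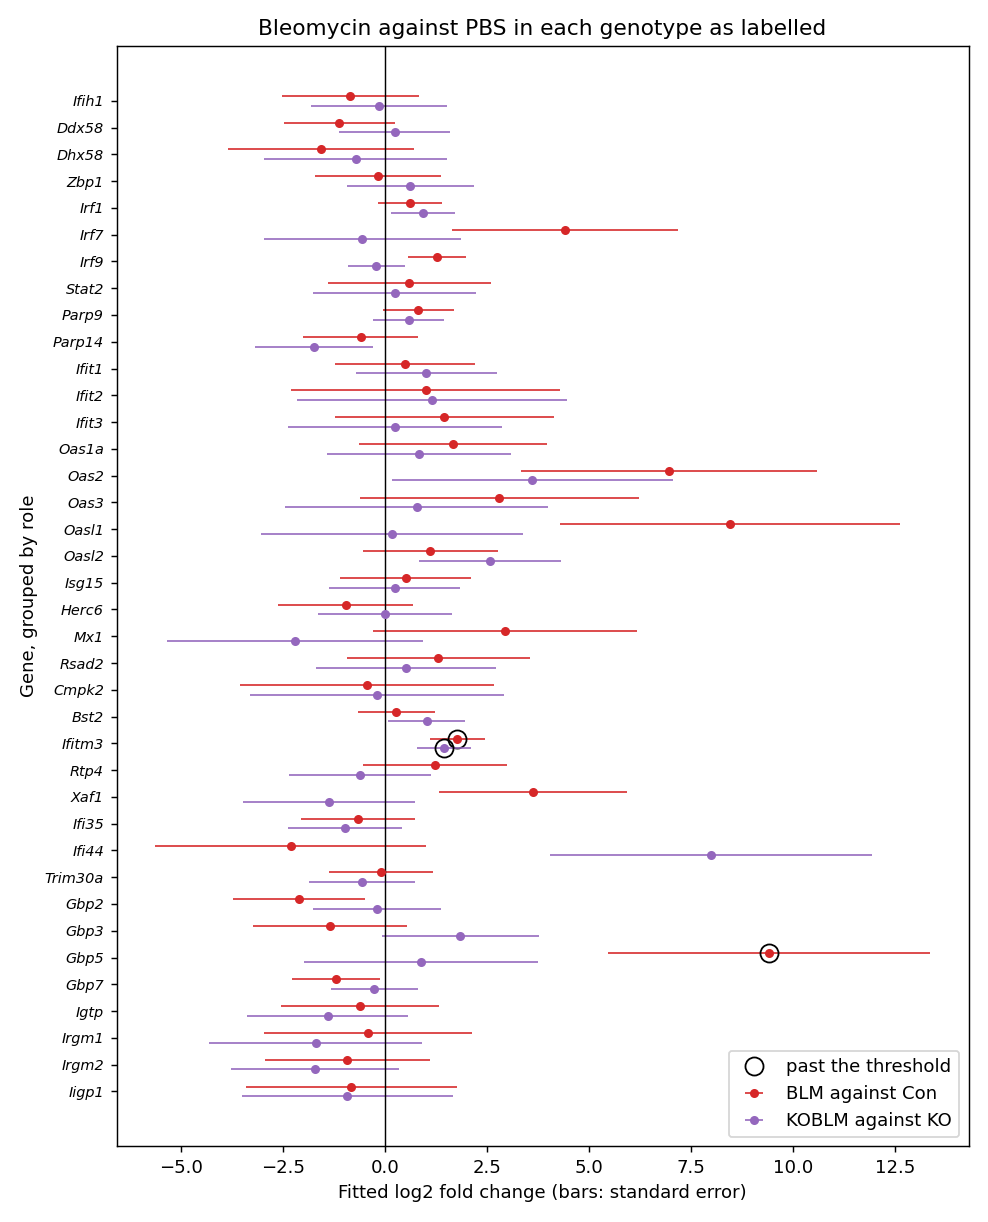
Fitted log2 fold change (points) with its standard error (bars) of the 38 genes for BLM against Con (red) and KOBLM against KO (purple), in the order of their roles. Rings mark the 3 values past the threshold, Ifitm3 in both comparisons and Gbp5 in BLM against Con. Values and bars of genes at 0 in a whole group, such as Gbp5, Oas2 and Oasl1, depend on the fit.

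No role group had more than 1 member past the threshold in any comparison. Of the 4 sensors of nucleic acid (Ifih1, Ddx58, Dhx58 and Zbp1), 0 passed the test in either direction in any comparison. Ddx58, which encodes the RNA sensor RIG-I, measured 41.6, 56.7 and 82.3 CPM in Con and 37.97, 37.46 and 0 CPM in BLM. BLM lay below Con in every library, at a log2 fold change of -1.11 with a standard error of 1.37.

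Of the 6 genes of signalling and transcription, 0 passed. Irf1 measured 77.04, 250.3 and 142 CPM in Con, 469, 156 and 69.3 CPM in BLM, 102, 144 and 205 CPM in KO and 528, 103 and 209.7 CPM in KOBLM. A single mouse was highest in each BLM-treated group, BLM 1 and KOBLM 1, and the groups overlapped (two-sided exact permutation p = 0.7 for BLM against Con and 0.4 for KOBLM against KO). Irf9, the DNA-binding partner of STAT2, measured 19.7, 41.7 and 38.6 CPM in Con, 59.8, 60.7 and 133 CPM in BLM, 42.0, 121 and 94.7 CPM in KO and 105, 51.8 and 70.8 CPM in KOBLM. All 9 libraries outside Con lay above the highest Con library. The unadjusted p of Irf9 was 0.0906 in BLM and 0.0523 in KO against Con (edgeR, adjusted p = 0.995 and 1), at log2 fold changes of 1.28 and 1.499 with standard errors of 0.70 and 0.71. Irf7, the amplifier of type I interferon transcription, had 0, 38 and 4 counts in Con, 317, 344 and 0 in BLM, 23, 131 and 311 in KO and 6, 0 and 274 in KOBLM, an uneven spread within each group.

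Of the 3 IFIT genes, whose products bind foreign RNA, 0 passed, and their summed level was 13.8 to 33.9 CPM in Con and 0 to 76.9 CPM in BLM. Oas1a, another oligoadenylate synthetase, measured 3.21, 3.96 and 0 CPM in Con, 6.14, 14.8 and 0 CPM in BLM, 1.72, 9.34 and 15.3 CPM in KO and 20.5, 13.3 and 12.3 CPM in KOBLM. Every KOBLM library lay above every Con library, but no comparison of Oas1a passed the test. Of the 5 OAS genes, Oas2 alone passed, and only averaged over the genotypes. Their sums were 7.76 to 16.1 CPM in Con, 5.11 to 60.2 CPM in BLM, 10.6 to 46.4 CPM in KO and 59.3 to 128 CPM in KOBLM. KOBLM 2 held the highest sum, in which Oasl2 alone measured 114.5 CPM.

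The ISG15 system, a ubiquitin-like protein and its ligase, had 0 of 2 genes past the threshold. Isg15 measured 11.9, 5.13 and 18.7 CPM in Con, 25.4, 19.0 and 1.97 CPM in BLM, 0.608, 24.0 and 36.0 CPM in KO and 48.8, 3.37 and 17.0 CPM in KOBLM. The range within each of the other groups covered that of Con. Of the 10 other antiviral effectors, Ifitm3 alone passed. Mx1, a GTPase that traps viral nucleocapsids, had 316 counts in BLM 1, 83 in BLM 2 and 0 in BLM 3, and at most 78 in any other library.

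Of the 4 guanylate-binding protein genes, Gbp5 alone passed. Gbp7, the most abundant, went the other way in its values, with 81.5, 99.2 and 93.1 CPM in Con and 66.8, 42.6 and 0.538 CPM in BLM. Every BLM library was below every Con library, but the log2 fold change of -1.19 with a standard error of 1.09 did not pass the test. In KO it measured 79.0, 52.9 and 143 CPM and in KOBLM 123, 31.2 and 65.5 CPM. Trim30a stayed within 70.5 to 78.0 CPM in Con and 71.4 to 87.7 CPM in KOBLM, with 89.9, 99.1 and 0 CPM in BLM and 60.2, 101 and 206 CPM in KO. Its 0 was in BLM 3 and its highest value in KO 3. Of the 4 immunity-related GTPases, 0 passed.

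Deletion of p300 as labelled was compared within each treatment. In KO against Con, 1 of the 38 genes (Gbp5) rose, where 0.536% of all genes rose, and 0 fell, where 0.904% of all genes fell. In KOBLM against BLM, 0 rose, where 1.39% of all genes rose, and 0 fell, where 1.78% fell. Averaged over treatments, 0 rose against 0.958% of all genes and 0 fell against 1.95%. For the difference between the effects of BLM in the genotypes, the interaction, 0 were higher against 1.51% of all genes and 0 lower against 1.31%. The unadjusted p was under 0.05 for 0 of the 38 genes in these last 3 tests with edgeR, and DESeq2 called 0 in KOBLM against BLM, 2 higher averaged over treatments, where it called 1.59% of all genes higher, and 2 lower for the interaction, where it called 2.41% lower. Ifitm3 in KOBLM was 0.475 times its mean in BLM, with a log2 fold change of -0.94, a standard error of 0.66 and an unadjusted p of 0.178 (edgeR, adjusted p = 1), and its interaction was -0.32 with a standard error of 0.93, so neither was past the threshold. The p300 comparisons share the Con or BLM libraries with the comparisons of BLM.

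In KO against Con, 31 of the 38 genes lay above the median log2 fold change of all genes. The median was 0.70, or 0.67 with the 4 genes at 0 throughout a group placed at their bounds, against -0.09 for all genes. In KOBLM against BLM, 23 of 38 lay above it, and the medians were 0.42 and 0.10. Without the 3 libraries with fewer than 10000 genes the difference in KO against Con was 0.41, and Gbp5, Irf9 and Oasl1 rose, where 2.42% of all genes rose.

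The other genes of the pathway were described from lists of known members. Of 21 interferon genes, 0 passed the filter on low counts and 2 had any count. Ifng, the gene of interferon gamma, had 75 counts in KO 2 and 0 in the other libraries, and Ifnk had 30 counts in KOBLM 3 alone. Ifnb1, the gene of interferon beta, was at 0 counts in every library, which is at or under the floor of 0.269 to 0.428 CPM. Of the 6 receptor genes, Ifnlr1, of the type III receptor, rose averaged over the genotypes, where 2.72% of all genes rose. Ifnlr1 had 15, 64 and 0 counts in BLM and 25 counts in KOBLM 3, against 0 in every PBS-treated library. Ifnar1, of the type I receptor, had means of 35.3 ± 11.6 CPM in Con and 41.8 ± 38.4 CPM in BLM (SD, n = 3 each).

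Of the 9 transducers, Jak2 alone passed, where 2.19% of all genes rose in BLM against Con and 1.16% in KOBLM against KO. Jak2, the kinase of the interferon gamma and of many cytokine receptors, measured 20.1, 26.2 and 8.76 CPM in Con, 122, 74.8 and 32.5 CPM in BLM, 17.7, 3.71 and 7.49 CPM in KO and 66.6, 135 and 53.0 CPM in KOBLM. Every BLM-treated library lay above every PBS-treated library. It rose at log2 fold changes of 2.12 (standard error 0.93) in BLM against Con and 3.12 (standard error 0.97) in KOBLM against KO, with unadjusted p of 0.0388 and 0.00606 (edgeR, adjusted p = 0.995 and 1). The call for BLM against Con was lost in 9 of 15 alternatives, and that for KOBLM against KO in 1 of 15, the adjusted threshold.

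Of the 10 genes of nucleic acid sensing and its adaptors that were tested, 0 passed. Of the 9 negative regulators, Socs3, a feedback inhibitor of JAK kinases that many cytokines induce, rose averaged over the genotypes. Of all genes, 2.72% rose in that comparison. Socs3 measured 45.2, 116 and 99.1 CPM in Con, 823, 646 and 217 CPM in BLM, 46.6, 171 and 0 CPM in KO and 527, 127 and 390 CPM in KOBLM. The log2 fold change was 2.45 with a standard error of 0.99 and an unadjusted p of 0.0272 (edgeR, adjusted p = 1.0). Usp18, which removes ISG15 from proteins and restrains type I signalling, had 97 counts in BLM 1, 105 in KO 2 and at most 33 elsewhere.

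Of 45 tested genes among 48 other interferon-stimulated genes, Ifitm1 rose and Gbp10 fell averaged over the genotypes. Of all genes, 2.72% rose and 1.75% fell in that comparison. Ifitm1, a neighbour and relative of Ifitm3, measured 0.267, 7.49 and 122 CPM in Con, 183, 140 and 209 CPM in BLM, 8.11, 20.7 and 2.78 CPM in KO and 31.2, 83.1 and 41.3 CPM in KOBLM. BLM exceeded Con and KOBLM exceeded KO in every library, with a log2 fold change of 2.11, a standard error of 0.95 and an unadjusted p of 0.0432 (edgeR, adjusted p = 1.0), a call lost in 10 of 20 alternatives. Ifitm2 did not pass at a log2 fold change of 1.71 with a standard error of 0.96, and measured 42.9, 56.8 and 50.04 CPM in Con and 265, 154 and 176 CPM in BLM. Con 3 held the highest control value of both Ifitm3 and Ifitm1, and also the highest sum of neutrophil markers among the PBS-treated libraries, 3696 CPM against 104 to 791 CPM in the others. BLM 3 held the highest value of both genes in any library, 694 CPM for Ifitm3 and 209 CPM for Ifitm1. Its neutrophil marker sum was 140 CPM. BLM 3 is also the library that stood apart in its pluripotency markers. Its Dppa5a was at 722 CPM, against at most 0.714 CPM elsewhere, and its Tet1 at 511 CPM, against at most 5.67 CPM. Its values therefore cannot be read for neutrophils alone. The part of neutrophils in the values was not tested. Gbp10 had 22, 0 and 106 counts in Con, 2, 28 and 98 in KO, and 0 in every BLM-treated library. It also fell within each genotype, at least 11.8-fold in BLM against Con and at least 12.8-fold in KOBLM against KO. Both of these calls were lost in 11 of 14 alternatives. Of all genes, 2.08% fell in BLM against Con and 0.529% in KOBLM against KO.

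Ifitm3 and Irf1 together made up 16.4% to 34.0% of the summed CPM of the 38 genes in Con and 36.2% to 73.4% in BLM. In KO they made up 18.9% to 20.4% and in KOBLM 31.3% to 38.5%. The sum of all 38 genes was 736 to 1347 CPM in Con and 1039 to 2165 CPM in BLM, and the sum of the other 36 was 615 to 889 CPM in Con and 277 to 1100 CPM in BLM. The ranges of the other 36 in Con and BLM thus overlapped, with the lowest and the highest of these sums both in BLM, in BLM 3 and BLM 1. In KO the other 36 summed to 562 to 1409 CPM and in KOBLM to 633 to 1266 CPM.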

How the data were processed

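RNA from cells sorted as ATII cells of 12 mice (3 per group) was sequenced with the QuantSeq 3′ kit. The authors deposited raw counts per gene symbol, without normalization. The submitters' processing notes name Bowtie2, edgeR and mm10; versions and the counting rule are not given in the sources used here. Entries of the 35 repeated symbols (79 entries) were summed. Totals were 7005005 to 11153154 counts.

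Groups came from the sample labels. Counts were filtered with filterByExpr by group (minimum count 10, minimum total 15), scaled by TMM (factors 0.836 to 1.25) and fitted with the quasi-likelihood model of edgeR 4.0.16 over 4 groups (8 residual degrees of freedom, biological coefficient of variation 1.44). Tests were two-sided. Calls required more than a 1.5-fold difference with an unadjusted p below 0.05, the study's threshold, beside Benjamini-Hochberg values over all 13054 genes. Folds of mean CPM against a group at 0 used 3 counts per library as the floor. Exact permutation tests used CPM. The edgeR steps were run on simulated counts, where recovery of the added changes was required only at a spread far below that of these data. That check does not show how many real changes the tests here could miss.

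All 38 members could be named. Values in every library are given for those called in a pairwise comparison, the 4 most abundant and those with a printed sequence. Usp18, Ifnar1, Ifnb1, Ifng and called genes of the other pathway lists were also to be named, and 1 further gene of these lists is not reported here. Other genes named with values were chosen after these were seen. The members and lists were chosen with earlier results of these data known.

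Alternatives were scaling by DESeq2 size factors, scaling by library size, no filter, the replicate number as a block, only the groups compared, an adjusted p, DESeq2 1.42.0 and leaving out libraries. Leaving out the 3 libraries with fewer than 10000 genes was chosen after seeing the data. Calculations ran in R 4.3.3 and in Python 3.11.15 (pandas 2.3.3, numpy 2.4.6, scipy 1.17.1), and plots were drawn with matplotlib 3.10.9. Positions were from GENCODE M21 and promoters from RefSeq.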

Additional observations from a re-analysis of the deposited data

How the results depend on the processing

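Counts of interferon-stimulated genes past the threshold are given in the order BLM against Con (2 in the report), KOBLM against BLM (0), KO against Con (1), KOBLM against KO (1), interaction (0), BLM averaged over genotypes (3) and deletion averaged over treatments (0). DESeq2 called 6, 0, 3, 0, 2, 3 and 2. Without the 3 libraries with fewer than 10000 genes (chosen after seeing the data) they were 5, 0, 3, 3, 2, 5 and 3. Without BLM 3 and KO 3 they were 3, 0, 3, 2, 1, 4 and 1. With DESeq2 size factors they were 2, 0, 2, 0, 0, 3 and 0, with library size alone 2, 0, 1, 0, 0, 3 and 0, and with no filter 3, 0, 2, 1, 0, 2 and 1. With an adjusted p from edgeR all were 0, whereas DESeq2 gave Oasl1 an adjusted p under 0.05 in 5 of the 7 comparisons. With only the groups compared, the first 4 counts were 0, 0, 1 and 1.

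Leaving out 1 library at a time gave 0 to 3, 0 to 2, 0 to 2, 0 to 0, 0 to 1, 1 to 4 and 0 to 2, in the same order. For BLM against Con the lowest came without Con 1, and without Con 2, Con 3 or BLM 2 the count was 1. For KOBLM against BLM, leaving out BLM 1 gave 2 (Gbp2 and Herc6). For KO against Con the count was 0 without Con 1, Con 3 or KO 2, and 2 without KO 1 or KO 3. For KOBLM against KO it was 0 without any 1 of the 6 libraries. For the interaction it was 1 without Con 2, BLM 1, BLM 3 or KOBLM 3. Averaged over genotypes it was 1 without any 1 Con library, BLM 2, KO 1, KO 3, KOBLM 1 or KOBLM 3. For the deletion it was 2 without BLM 1 and 1 without Con 1, Con 2, KO 3, KOBLM 1 or KOBLM 2. The cause was not tested.

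With the replicate block the counts were 1, 0, 0, 1, 0, 2 and 0. The replicate numbers showed no sign of pairing: 0 of 18 same-numbered pairs had deviations from the group means correlated above 0.1 (range -0.12 to 0.096), and 4 of 12 libraries correlated best with their own number. Whether mice shared a litter or a day of sorting remains unknown.

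The medians of the 38 genes relative to all genes moved by less than the spread between mice (SD 0.819, to which BLM 3 adds a value set by the floor of the log scale) in every alternative, but changed sign in some: they ranged from -0.15 to 0.78 for BLM against Con, -0.05 to 0.71 for KOBLM against BLM, -0.54 to 0.64 for KOBLM against KO and -1.11 to 0.10 for the interaction. This spread was larger than every main value, the largest being 0.79 in KO against Con. Moving by less than it therefore does not show stability. Every gene with a call kept its direction in all alternatives. For genes at 0 throughout a group the standard errors are no measure of precision. In BLM against Con they came to 3.94 for Gbp5 and 3.63 for Oas2 on the log2 scale.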
